A study of Rattus norvegicus with 6 samples.

Results

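The 47 genes described here act in the cell cycle and in DNA replication. They were chosen by symbol, and 46 of them are among the 22081 genes of the deposited table, while Ccnb2 was not analysed here. RNA sequencing was performed on unruptured, rupture-prone intracranial aneurysm (IA) lesions of 3 rats and on the remaining circle of Willis, the arterial ring at the base of the brain, of the same 3 rats, so that there were 3 libraries in each group. The rats were female Sprague Dawley animals, 10 weeks old when purchased, in which both ovaries had been removed and the left carotid, the right external carotid, the right pterygopalatine and the left renal artery had been tied. Their chow held 8% salt (sodium chloride) together with 3-aminopropionitrile, a blocker of lysyl oxidase, at 0.12%. Lesions of the anterior or posterior communicating artery and the rest of the ring were taken on day 63 after surgery by the labels, although the study's methods in another place give an earlier day for RNA sequencing. Both groups thus share the surgery and the diet, and the circle of Willis of an operated rat stands in as control, not an artery of an unoperated rat. The libraries held 65823027 to 70705938 counts, and no member had fewer than 16 counts in any library.

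A cell that divides passes through G1, copies its DNA in S phase, and separates the copies in G2 and mitosis (G2/M). D-type cyclins with Cdk4 and cyclin E with Cdk2 release E2F factors, which switch on the replication genes. The G2/M genes are switched on later, through the factors B-MYB and FOXM1, and many of them are silent in resting cells. The normal artery wall is largely at rest, whereas smooth muscle cells, fibroblasts and macrophages can enter the cycle when the wall is injured. The members were sorted accordingly into 15 S phase genes (with the G1/S regulators Ccne1, Ccne2, Cdk2 and E2f1), 24 G2/M genes, 4 G1 cyclins and kinases, and 3 inhibitors of cyclin-dependent kinases (CDK).

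The G2/M genes were far more abundant in the lesions of animals 2 and 3 than in any circle of Willis, and the lesion of animal 1 did not share this. Their levels summed to 34.9, 189 and 243 TPM in the lesions of animals 1, 2 and 3, against 36.5, 43.3 and 57.2 TPM in the circle of Willis. TPM is the authors' transcript level, scaled by gene length and to the same total in each library. Within an animal, the lesion held 0.958, 4.36 and 4.25 times the sum of its own circle of Willis. For each of the 24 genes, both of the lesions of animals 2 and 3 lay above every circle of Willis in TPM. Animals 2 and 3 were grouped in this count after the values were seen, and the count was not made over all genes. On the TPM scale the lesion of animal 1 lay within the range of the circle of Willis for 9 genes, below it for 15 and above it for none. Its ratio to its own circle of Willis, in counts scaled to the library total after TMM, was above 1 for 13 genes and below 1 for 11. The S phase genes differed less, with sums of 119, 229.6 and 229 TPM in the lesions, against 132, 168 and 142 TPM in the circle of Willis, and ratios of 0.899, 1.37 and 1.61. In such bulk tissue, more dividing cells and more of these transcripts per cell cannot be told apart.

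**Figure D1:**
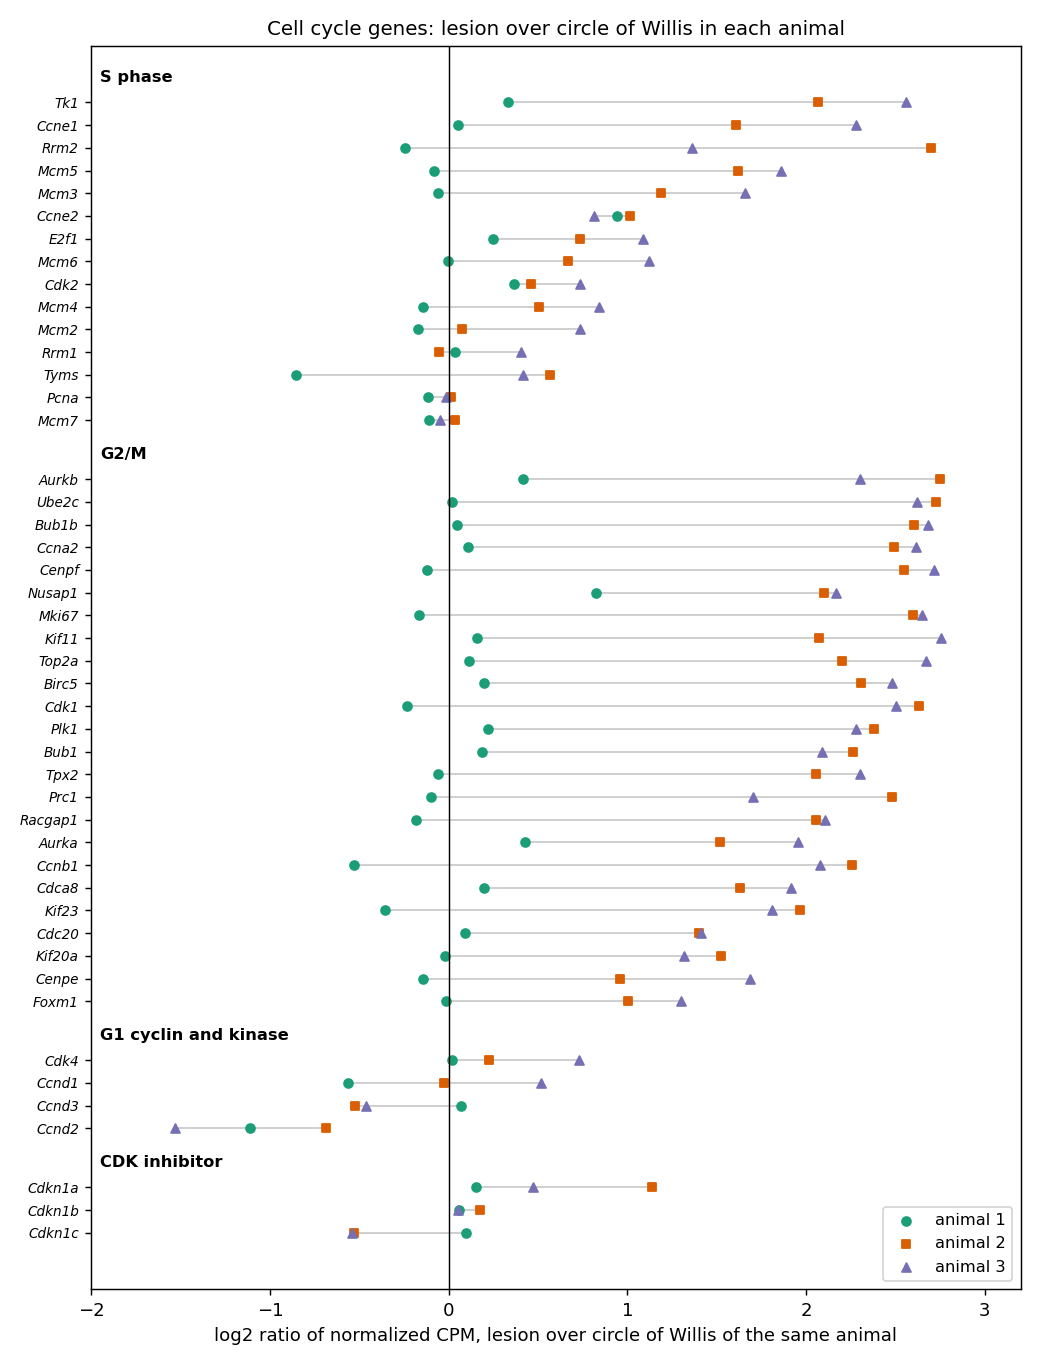
Log2 ratio of normalized CPM, lesion over circle of Willis of the same animal, for the 46 members in 4 groups, with 1 symbol per animal and a grey line over their range. The symbols of animals 2 and 3 lie to the right of 0 for each of the 24 G2/M genes, whereas those of animal 1 lie between -0.53 and 0.82.

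Among the G2/M genes, the proliferation antigen Mki67 (chromosome 1 of Rnor6, 207993895 to 208020454) had 0.818, 4.45 and 7.03 TPM in the lesions, against 1, 0.7 and 1.12 TPM in the circle of Willis. Cdk1, the kinase that drives entry into mitosis (chromosome 20, 20576377 to 20591549), had 1.95, 30.0 and 32.9 TPM in the lesions, against 2.5, 4.62 and 5.79 TPM in the circle of Willis. Within animals 1, 2 and 3, the ratios of normalized CPM (counts scaled to the library total after TMM) were 0.889, 6.09 and 6.29 for Mki67 and 0.849, 6.23 and 5.69 for Cdk1. Both genes therefore had slightly lower values in the lesion than in the circle of Willis of animal 1 and about 6 times higher values in the lesions of the other animals. The cyclins that bind Cdk1 gave the same picture. Ccna2, active from S phase to early mitosis, had 0.661, 5.61 and 7.67 TPM in the lesions, against 0.667, 0.939 and 1.24 TPM in the circle of Willis. Ccnb1, the mitotic cyclin, had 0.791, 9.6 and 9.99 TPM in the lesions, against 1.25, 1.9 and 2.35 TPM in the circle of Willis, with the lowest ratio of all G2/M genes in animal 1 at 0.687. Top2a, the topoisomerase that untangles sister DNA, had 1.03, 6.96 and 11.1 TPM in the lesions, against 1.03, 1.45 and 1.75 TPM in the circle of Willis.

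Kinases and checkpoint proteins of mitosis followed. Aurkb, the kinase of the chromosomal passenger complex, had 0.942, 4.46 and 8.49 TPM in the lesions, against 0.765, 0.626 and 1.72 TPM in the circle of Willis, and its mean log2 ratio of 1.82 ± 0.72 (standard error, n = 3 animals) was the highest of the G2/M genes. Its partners in that complex were Birc5 (survivin), with 2.65, 14.3 and 18.9 TPM in the lesions, against 2.51, 2.73 and 3.36 TPM in the circle of Willis, and Cdca8 (borealin), with 3.96, 11.9 and 16.2 TPM in the lesions, against 3.75, 3.68 and 4.28 TPM in the circle of Willis. For Cdca8 every lesion lay above every circle of Willis in normalized CPM, whereas in TPM the lesion of animal 1 lay below the circle of Willis of animal 3. Aurka, the kinase of the spindle poles, had 2.9, 8.87 and 13 TPM in the lesions, against 2.34, 2.95 and 3.34 TPM in the circle of Willis. Plk1, which acts in spindle assembly and cytokinesis, had 1.66, 6.43 and 8.87 TPM in the lesions, against 1.55, 1.17 and 1.82 TPM in the circle of Willis. Again the lesion of animal 1 was close to its own circle of Willis, with ratios of 1.35 for Aurka and 1.17 for Plk1. The checkpoint kinase Bub1 had 0.357, 3.01 and 3.2 TPM in the lesions, against 0.341, 0.593 and 0.745 TPM in the circle of Willis, and the related checkpoint protein Bub1b had 0.245, 2.35 and 2.41 TPM in the lesions, against 0.257, 0.36 and 0.367 TPM in the circle of Willis.

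The motors and the proteins of the spindle and of its disassembly were similar. Kif11, the motor that pushes the spindle poles apart, had 0.476, 2.85 and 4.92 TPM in the lesions, against 0.462, 0.642 and 0.721 TPM in the circle of Willis. Tpx2, which activates Aurka on the spindle, had 1.26, 6.88 and 9.96 TPM in the lesions, against 1.43, 1.58 and 2.02 TPM in the circle of Willis. Prc1, which bundles microtubules at the midzone, had 1.9, 14.9 and 19.5 TPM in the lesions, against 2.21, 2.55 and 5.97 TPM in the circle of Willis, with ratios of 5.6 and 3.27 in animals 2 and 3. Ube2c and Cdc20 serve the anaphase-promoting complex, which marks cyclin B for destruction. Ube2c had 0.64, 6.78 and 8.68 TPM in the lesions, against 0.687, 0.968 and 1.4 TPM in the circle of Willis, and Cdc20 had 3.72, 12.3 and 11.7 TPM in the lesions, against 3.8, 4.43 and 4.4 TPM in the circle of Willis. The 6 other G2/M genes (Cenpf and Cenpe of the kinetochore, Kif20a, Kif23 and Racgap1 of cytokinesis, and the factor Foxm1) had ratios from 0.777 to 0.991 in animal 1, from 1.95 to 5.92 in animal 2 and from 2.46 to 6.64 in animal 3.

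Nusap1 stood apart in animal 1. This microtubule-binding protein of the spindle (chromosome 3 of Rnor6, 111422267 to 111452971) had 162, 732 and 1336 counts in the lesions of animals 1, 2 and 3, against 94, 165 and 290 counts in the circle of Willis, and 0.802, 4.13 and 6.76 TPM in the lesions, against 0.489, 0.916 and 1.5 TPM in the circle of Willis. Its ratios of 1.78, 4.32 and 4.52 were all over 1.5, which held for no other G2/M gene. The groups still overlap when pairing is ignored, because the lesion of animal 1 lies below the circle of Willis of animals 2 and 3. The mean log2 ratio was 1.70 ± 0.44 (standard error, n = 3 animals), with an adjusted p = 0.181 by the quasi-likelihood test of edgeR over all genes.

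**Figure D2:**
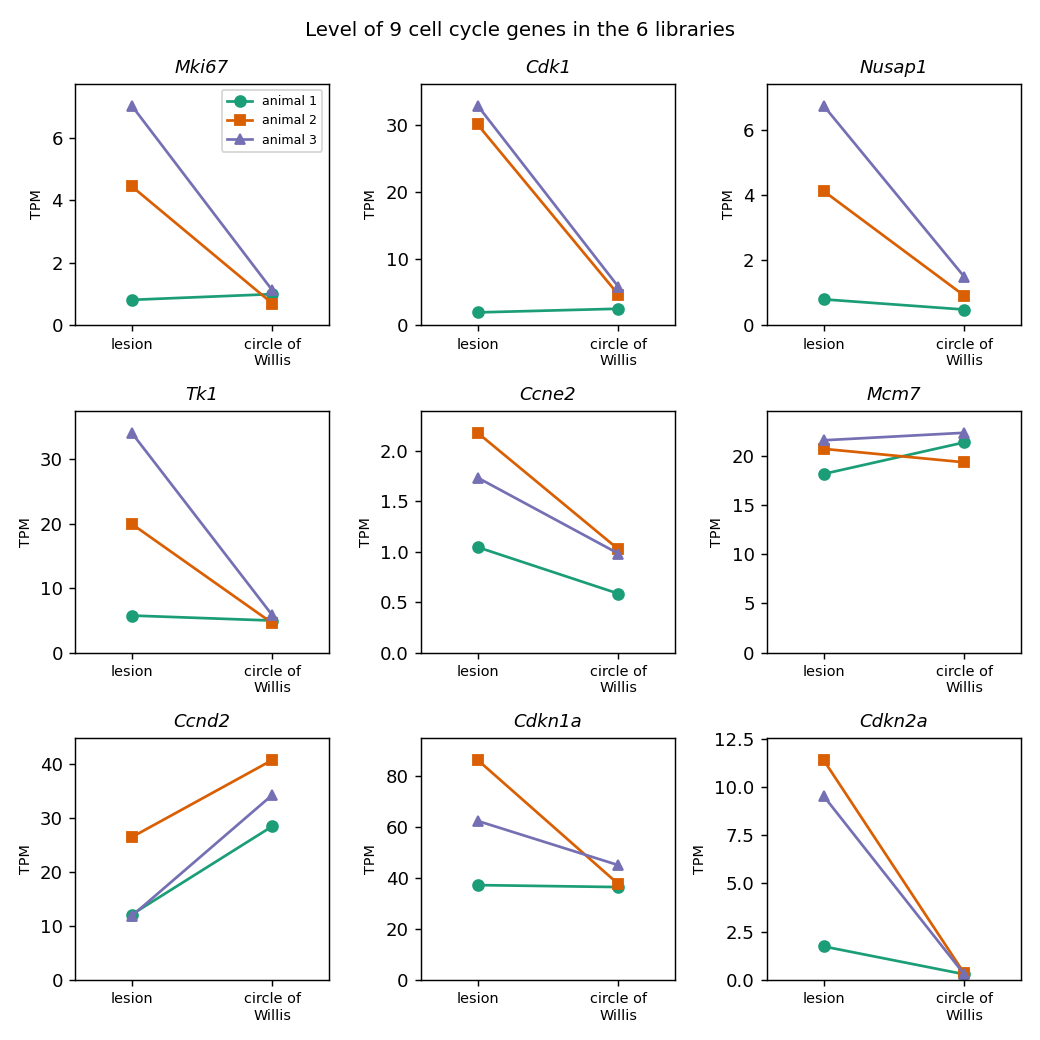
Level in TPM (axes from 0, separate for each gene) of 9 genes in the lesion and in the circle of Willis, with a line joining the libraries of 1 animal. Mki67, Cdk1 and Tk1 are high in the lesions of animals 2 and 3 alone, Ccne2 and Cdkn2a are higher and Ccnd2 is lower in the lesion of every animal, and Mcm7 stays between 18.2 and 22.3 TPM.

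The S phase genes were unequal, and some had ratios as high as those of the G2/M genes while others had ratios near 1. Tk1, the thymidine kinase of the salvage pathway, had 5.75, 20.0 and 34.1 TPM in the lesions, against 4.97, 4.56 and 5.78 TPM in the circle of Willis, with ratios of 1.26, 4.2 and 5.91. Rrm2, the cell cycle-regulated subunit of ribonucleotide reductase, had 0.284, 7.92 and 3.48 TPM in the lesions, against 0.373, 1.13 and 1.33 TPM in the circle of Willis. Rrm1, the other subunit of the same enzyme, had 13.2, 19.1 and 18.8 TPM in the lesions, against 14, 19 and 14.2 TPM in the circle of Willis, with ratios of only 1.03, 0.964 and 1.32. Thus the subunits of 1 enzyme differed in their ratios. Tyms, the thymidylate synthase, had ratios of 0.548, 1.48 and 1.34, the lowest of the S phase genes in animal 1.

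The MCM genes encode the 6 subunits of the replicative helicase, and their ratios were unequal as well. Mcm5 had 2.6, 9.35 and 11.4 TPM in the lesions, against 3, 2.9 and 3.15 TPM in the circle of Willis, and Mcm3 had 4.25, 9.52 and 12.6 TPM in the lesions, against 4.83, 4 and 3.99 TPM in the circle of Willis. Mcm7 had 18.2, 20.7 and 21.6 TPM in the lesions, against 21.4, 19.3 and 22.3 TPM in the circle of Willis, without any clear difference. For the remaining subunits the ratios in animals 1, 2 and 3 were 0.998, 1.59 and 2.18 for Mcm6, 0.904, 1.42 and 1.8 for Mcm4 and 0.888, 1.05 and 1.67 for Mcm2. Pcna, the sliding clamp of the polymerases and the most abundant S phase gene, had 37.9, 74.2 and 49.2 TPM in the lesions, against 44.7, 70.7 and 49.8 TPM in the circle of Willis, so that its ratios were 0.922, 1.01 and 0.99. Ratios near 1 for Pcna and Mcm7 have an uncertainty of their own, with mean log2 ratios of -0.04 ± 0.04 and -0.04 ± 0.04 (standard error, n = 3 animals each).

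Of the regulators of the G1/S transition, Ccne2 (cyclin E2) was higher in each lesion by a similar factor. It had 1.05, 2.18 and 1.74 TPM in the lesions, against 0.585, 1.03 and 0.983 TPM in the circle of Willis, and every lesion lay above every circle of Willis, by a narrow margin in animal 1. The ratios were 1.94, 2.04 and 1.77, and the mean log2 ratio of 0.92 ± 0.06 (standard error, n = 3 animals) had the adjusted p of 0.208 from edgeR. Ccne1 (cyclin E1), in contrast, had 0.96, 4.3 and 5.96 TPM in the lesions, against 1.01, 1.34 and 1.21 TPM in the circle of Willis, and so followed the G2/M genes. Cdk2, the kinase of both cyclins, had 10.6, 13.1 and 17.1 TPM in the lesions, against 8.95, 9.07 and 10.3 TPM in the circle of Willis, with no overlap between the groups. E2f1, which activates the replication genes, had 3.28, 5.32 and 7.68 TPM in the lesions, against 3, 3.05 and 3.61 TPM in the circle of Willis, with ratios of 1.19, 1.67 and 2.13.

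To compare the phases, the log2 ratios (prior count of 2) were summarised by their median in each animal. The G2/M genes had medians of 0.03, 2.23 and 2.22 in animals 1, 2 and 3, and the S phase genes of -0.06, 0.67 and 0.84, beside 0.00, -0.05 and -0.04 over all 15367 genes tested. The G2/M median thus exceeded the S phase median by 0.10, 1.56 and 1.38. In animal 2, 9 of the 15 S phase genes lay below the lowest G2/M gene, and in animal 3, 10 did. The S phase genes at or above it were Tk1, Ccne1, Rrm2, Mcm3 and Mcm5 in both animals, and Ccne2 in animal 2. The mean difference of 1.01 had an SD of 0.80 (n = 3 animals), and no test was made of it because the genes of a list share their libraries. The lists also differed in level. Mean levels of the G2/M genes in the circle of Willis ran from 0.303 to 4.3 TPM. Pcna, Mcm7 and Rrm1, with ratios near 1, had 55.1, 21 and 15.7 TPM there. Rrm2 (0.947), Ccne1 (1.19) and Mcm5 (3.02), with high ratios, were low there, but so was Tyms (3.63), with small ratios. The part of this level in the difference was not tested.

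**Figure D3:**
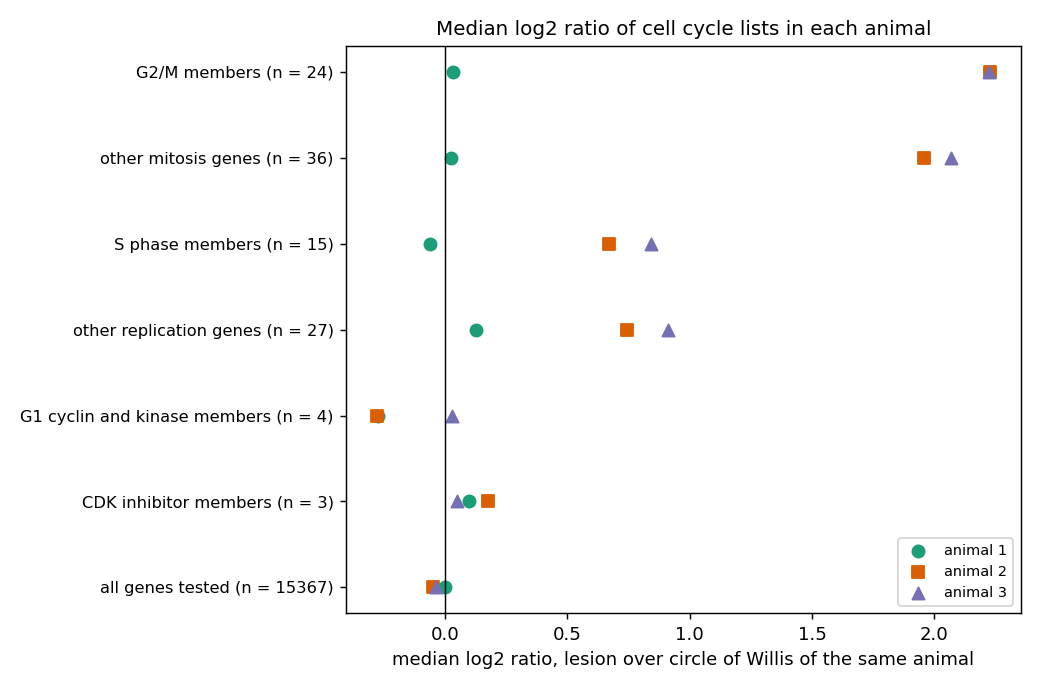
Median log2 ratio, lesion over circle of Willis, of each group of genes in each animal, with the number of genes tested in parentheses. The G2/M genes lie at 2.23 and 2.22 in animals 2 and 3 and at 0.03 in animal 1, the other mitosis genes lie near them, and the median of all genes lies between -0.05 and 0.

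The other genes of replication and mitosis, taken from lists of these pathways, showed the same order. The 36 other mitosis genes had medians of 0.02, 1.96 and 2.07, and 30 of them were over 1.5-fold higher in both animals 2 and 3, beside 10.7% of all genes. The 27 other replication genes had medians of 0.13, 0.74 and 0.91, and 13 were. Of these lists, 14 mitosis genes and 6 replication genes had an unadjusted p under 0.05 from edgeR in the higher direction, beside 8.63% of all genes, and none in the lower, beside 12%. Melk, a kinase of dividing cells, had ratios of 2.07, 5.19 and 5.88. Shcbp1, a protein of cytokinesis, had 18, 151 and 201 counts in the lesions, against 6, 34 and 41 counts in the circle of Willis, and Spc25, a subunit of the kinetochore, had ratios of 2.29, 3.63 and 6.95. Incenp, the scaffold of the chromosomal passenger complex, had 3.77, 5.49 and 8.58 TPM in the lesions, against 2.47, 2.36 and 1.92 TPM in the circle of Willis. Incenp is named in addition because it, Melk, Shcbp1 and Spc25 were over 1.5-fold higher in each of 3 animals. Cenpa, the histone of the centromere, had the highest mean log2 ratio of the list, with ratios of 1.06, 9.58 and 7.95. Among the replication genes the ratios were 1.37, 4.51 and 5.28 for Uhrf1, which keeps up DNA methylation, 1.15, 5.11 and 5.15 for Gins1, a part of the replicative helicase, and 1.29, 8.73 and 5.13 for Cdc6, which loads the helicase.

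In the test of all genes, edgeR called 0 of the 46 members higher (0% of all 15367 genes) and 0 of them lower (0%) by the Benjamini-Hochberg threshold of 0.05, and the adjusted p of the members ran between 0.174 and 0.96. At an unadjusted p under 0.05, 18 members were higher, beside 8.63% of all genes, and 1 was lower, beside 12% of all genes. The 18 were 14 G2/M genes and the S phase genes Ccne2, Cdk2, E2f1 and Tk1. DESeq2 on the same counts called 18 members higher, beside 5.38% of all genes, and 1 lower, beside 6.37%. They were 17 G2/M genes and Tk1, with Nusap1 at the lowest adjusted p = 0.00043 from DESeq2, and Ccnd2. The choice of animals decided these counts. Without animal 1, edgeR found 35 members higher at an unadjusted p under 0.05, beside 12.5% of all genes, whereas without animal 2 or animal 3 it found 1 each, beside 2.9% and 3.56%.

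Counted within animals, 2 members were over 1.5-fold higher in the lesion of animal 1, beside 8.51% of all genes, and 33 and 36 members in animals 2 and 3, beside 18.6% and 17.8%. In both animals 2 and 3 it was 32 members, beside 10.7% of all genes, a count made after the values were seen. In each of 3 animals, 2 members (Ccne2 and Nusap1) were over 1.5-fold higher, beside 2.75% of all genes, and 1 (Ccnd2) was over 1.5-fold lower, beside 5.51%. Every lesion lay above every circle of Willis in normalized CPM for 5 members (Ccne2, Cdk2, Tk1, Cdca8 and Cdkn1b), beside 10.3% of all genes, and below it for Ccnd2, beside 11.6%. In TPM the groups overlapped for Tk1, Cdca8 and Cdkn1b. The share of members over 1.5-fold higher was thus above that of all genes in animals 2 and 3. In animal 1 it was not above it, and with only 2 members counted no difference is read from it.

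The G1 cyclins, which respond to growth signals, had no common direction. Ccnd2 (chromosome 4 of Rnor6, 159674885 to 159697207) had 12.1, 26.4 and 11.8 TPM in the lesions, against 28.4, 40.7 and 34.2 TPM in the circle of Willis, so that each lesion lay below each circle of Willis. Its ratios were 0.462, 0.622 and 0.346, and its mean log2 ratio of -1.11 ± 0.24 (standard error, n = 3 animals) had the lowest adjusted p of the members in edgeR, at 0.174, while DESeq2 gave it an adjusted p of 0.00158. Ccnd3, the most abundant D-type cyclin in these tissues, had 213, 149 and 144 TPM in the lesions, against 222, 206 and 199 TPM in the circle of Willis. Its ratios of 1.05, 0.694 and 0.725 were below 1 in animals 2 and 3. Ccnd1 had 29.8, 54.6 and 60.9 TPM in the lesions, against 48, 53.4 and 42.6 TPM in the circle of Willis, with ratios on both sides of 1, and Cdk4, the kinase that these cyclins activate, had 148, 225 and 214 TPM in the lesions, against 159, 185 and 129.6 TPM in the circle of Willis.

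The inhibitors of the Cip/Kip family had no common direction. Cdkn1a (p21), a target of p53, had 37.2, 86.4 and 62.4 TPM in the lesions, against 36.4, 37.6 and 45 TPM in the circle of Willis, and its ratios were 1.11, 2.2 and 1.39. Cdkn1b (p27), which holds resting cells in G1, had 27.9, 37.2 and 30.9 TPM in the lesions, against 29.1, 31.5 and 29.9 TPM in the circle of Willis, with ratios of 1.04, 1.13 and 1.03. Cdkn1c (p57), an imprinted inhibitor, had 169.9, 137 and 64.3 TPM in the lesions, against 173, 189 and 93.9 TPM in the circle of Willis. Its ratios of 1.07, 0.691 and 0.686 were below 1 in animals 2 and 3.

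Cdkn2a and Cdkn2b, from the list of other G1 regulators, encode inhibitors of the INK4 family, which block Cdk4 and Cdk6, and were further from the circle of Willis than the Cip/Kip genes. Cdkn2a (chromosome 5 of Rnor6, 107823330 to 107841175) had 76, 439 and 410 counts in the lesions of animals 1, 2 and 3, against 12, 13 and 12 counts in the circle of Willis, and 1.73, 11.4 and 9.53 TPM in the lesions, against 0.287, 0.332 and 0.285 TPM in the circle of Willis. Its neighbour Cdkn2b (107845951 to 107858104) had 147, 840 and 772 counts, against 46, 99 and 109 counts. The ratios were 6.56, 32.9 and 33.5 for Cdkn2a and 3.31, 8.27 and 6.95 for Cdkn2b, over 1.5 in each animal. The mean log2 ratios were 4.07 ± 0.77 and 2.49 ± 0.41 (standard error, n = 3 animals each). The adjusted p was 0.174 for each from edgeR, whereas DESeq2 gave adjusted p values of 5.48e-09 for Cdkn2a and 5.39e-08 for Cdkn2b. For both genes the lesions of animals 2 and 3 lay above that of animal 1. Cdkn2c, a further INK4 gene, had nearly equal ratios of 1.31, 1.45 and 1.4 in the animals. The counts do not tell the p16 and ARF transcripts of Cdkn2a apart. Of the 15 other G1 regulators, 4 (Cdkn2a, Cdkn2b, Mybl2 and Cdkn2c) had an unadjusted p below 0.05, all in the higher direction (8.63% of all genes), and Mybl2 (B-MYB) had ratios of 1.18, 10.2 and 8.91.

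Promoters are shown because the 24 G2/M genes had high ratios together in animals 2 and 3 while the S phase genes were unequal. Of the 47 members, 34 had a promoter of 300 bases (250 before the start and 50 after it) in RefSeq's annotation of GRCr8, a later build than that of the counts, and the G2/M promoters include that of Ccnb2. Both strands were searched for TTTGAA, the core of the cell cycle homology region (CHR) through which G2/M genes are switched, for CCAAT, the site of NF-Y, and for GGCGGGAA or GCGCGAAA, forms of the E2F site. TTTGAA was in 13 of 19 G2/M promoters (68.4%), 1 of 11 S phase promoters (9.09%) and 18.1% of all 27457 promoters. CCAAT was in 16 of 19 G2/M promoters (84.2%), 7 of 11 S phase promoters (63.6%) and 37.7% of all promoters, and both TTTGAA and CCAAT in 12 G2/M promoters, no S phase promoter and 7.25% of all. The E2F forms were in 2 of 19 G2/M promoters, 6 of 11 S phase promoters (54.5%) and 2.35% of all. In the following stretches, from 250 bases before the start to 20 after it, capitals mark these motifs in either orientation.
Cdk1, chr20:19265043-19265312, plus strand: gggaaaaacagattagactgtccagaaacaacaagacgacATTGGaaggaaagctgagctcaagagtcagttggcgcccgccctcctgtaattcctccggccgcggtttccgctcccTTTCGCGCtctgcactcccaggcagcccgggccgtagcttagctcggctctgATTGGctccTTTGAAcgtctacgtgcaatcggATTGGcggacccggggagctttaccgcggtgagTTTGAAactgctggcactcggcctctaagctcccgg
Nusap1, chr3:127057045-127057314, plus strand: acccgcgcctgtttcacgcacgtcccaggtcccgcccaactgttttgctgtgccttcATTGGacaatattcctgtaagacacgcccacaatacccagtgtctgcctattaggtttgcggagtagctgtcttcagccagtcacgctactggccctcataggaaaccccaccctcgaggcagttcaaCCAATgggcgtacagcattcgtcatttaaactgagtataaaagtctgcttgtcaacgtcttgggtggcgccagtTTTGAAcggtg
Mcm5, chr19:13488563-13488832, plus strand: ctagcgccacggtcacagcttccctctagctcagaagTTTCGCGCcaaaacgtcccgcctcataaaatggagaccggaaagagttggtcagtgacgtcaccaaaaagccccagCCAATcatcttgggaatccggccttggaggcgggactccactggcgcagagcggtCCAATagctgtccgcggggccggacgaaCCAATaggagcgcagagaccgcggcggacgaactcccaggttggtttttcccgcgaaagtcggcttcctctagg
Mcm7, chr12:22163159-22163428, minus strand: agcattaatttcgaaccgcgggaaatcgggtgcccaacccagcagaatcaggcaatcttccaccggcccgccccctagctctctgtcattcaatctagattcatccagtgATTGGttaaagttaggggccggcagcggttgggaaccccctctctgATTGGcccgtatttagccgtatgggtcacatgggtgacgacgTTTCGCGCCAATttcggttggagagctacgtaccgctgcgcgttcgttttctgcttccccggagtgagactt
The Cdk1 promoter held 2 TTTGAA, 3 CCAAT and 1 E2F form, and that of Nusap1 held 1 TTTGAA and 2 CCAAT. By the letters searched, the promoters of Mcm5 and Mcm7 both held 3 CCAAT, 1 E2F form and no TTTGAA. In Mcm7 the E2F form overlaps a CCAAT by 1 base. Other forms of the E2F site were not searched, so they are unmarked and not counted in either promoter. These helicase subunits had, in animals 1, 2 and 3, ratios of 0.943, 3.09 and 3.63 for Mcm5 and 0.924, 1.03 and 0.968 for Mcm7. A match of letters is a description and not a site in use.

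Many but not all markers of macrophages, neutrophils and fibroblasts were higher in the lesions of animals 2 and 3 than in their own circle of Willis. This held for 6 of 8, 6 of 6 and 3 of 5 markers of these lists, and the share of all genes was not counted for it. Over 1.5-fold higher in both animals were 5, 5 and 2 of these markers, beside 10.7% of all genes. The 8 macrophage markers had median log2 ratios of -0.11, 0.95 and 1.30 in animals 1, 2 and 3, with sums of 3047, 5484 and 11114 TPM in the lesions, against 2440, 1381 and 2594 TPM in the circle of Willis. The 6 neutrophil markers had 0.52, 3.93 and 1.63, with sums of 66.4, 443 and 114 TPM, against 51.7, 36.8 and 58.6 TPM. Of these sums, Fcgr3a gave 41.0 TPM in the lesion of animal 1 and 34.5 TPM in its circle of Willis, whereas S100a9 gave 226 TPM in the lesion of animal 2. The 5 fibroblast markers had 0.12, 0.54 and 1.06, with sums of 912, 6152 and 4128 TPM, against 962, 1375 and 1181 TPM. For these lists, too, animal 1 had the lowest median. In animal 1 the median of the macrophage list was below 0 although its sum was higher in the lesion. Most of that sum was Lyz2 (lysozyme), with 2388 TPM in the lesion of animal 1, against 1722 TPM in its circle of Willis. Of the fibroblast sums, Col1a1 (collagen) gave 3605 and 2953 TPM in the lesions of animals 2 and 3. The sums thus rest largely on single genes. Postn (periostin), a matrix protein of activated fibroblasts, had ratios of 12.6, 227 and 58.3, whereas Dcn (decorin), another matrix protein, had 0.758, 0.773 and 0.583 and the receptor Pdgfra had 0.652, 0.571 and 1.05. Cd68, a lysosomal protein of macrophages, had ratios of 2.32, 4.59 and 13.3. The macrophage receptors Cd163 and Mrc1 differed from it, with ratios of 0.33, 0.359 and 0.645 for Cd163, whose lesions all lay below every circle of Willis in normalized CPM, and 0.709, 0.718 and 1.7 for Mrc1.

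By their medians, the other lists were not lowest in animal 1, although animals 1 and 3 were nearly equal for the lymphocyte markers. By their sums, the lymphocyte list and the neuron and astrocyte list differed least between lesion and circle of Willis in animal 1. The 6 smooth muscle markers had medians of -0.24, 0.48 and -2.33, with sums of 5974, 7715 and 2762 TPM in the lesions, against 7992, 4529 and 13344 TPM in the circle of Willis, so that the lesions of animals 2 and 3, alike in their G2/M genes, differed in these. The 6 oligodendrocyte and precursor markers had 1.66, 5.39 and 0.12, with a sum of 3715 TPM in the lesion of animal 2 and between 54.5 and 353.9 TPM in the other libraries. The 6 neuron and astrocyte markers had 0.17, -0.81 and -2.84, the 5 endothelial markers -0.05, -1.35 and -0.44 and the 7 lymphocyte markers 0.50, 1.37 and 0.50. The lymphocyte sums were 34.0, 34.2 and 38.2 TPM in the lesions, against 30.6, 14.1 and 20.7 TPM in the circle of Willis. The neuron and astrocyte sums were 79.8, 618 and 581 TPM in the lesions, against 76.9, 214 and 200.3 TPM in the circle of Willis. Sum and median thus differ in sign in animals 2 and 3. Most of each lesion sum was Gfap, with 72.1, 591 and 551 TPM. The astrocyte genes Gfap and Aqp4 had ratios of 1.13, 3 and 3.66 and of 1.18, 1.8 and 1.58. Slc1a2, also of astrocytes, had 0.0963, 0.292 and 0.115, and the neuron genes Snap25, Syt1 and Rbfox3 were below 1 in animals 2 and 3. All markers of these lists were detected in both groups, and no list was at 0 in any library. The part of any of these cell types in the levels of the cell cycle genes was not tested.

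**Figure D4:**
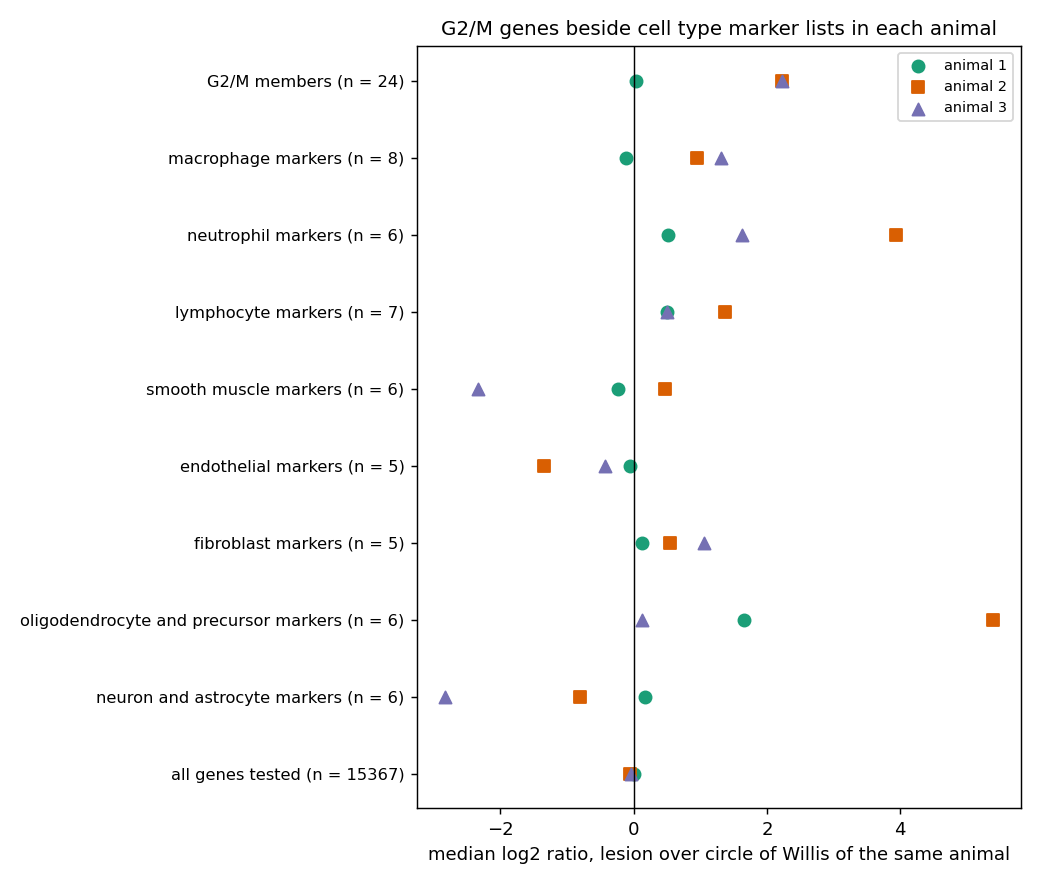
Median log2 ratio, lesion over circle of Willis, of the G2/M genes and of 8 lists of cell type markers in each animal, with the number of genes tested in parentheses. Macrophage, neutrophil and fibroblast markers are lowest in animal 1, as the G2/M genes are, smooth muscle markers are lowest in animal 3 at -2.33, and oligodendrocyte markers are highest in animal 2 at 5.39.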

How the data were processed

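RNA of 3 IA lesions and of what remained of each rat's circle of Willis had been made into stranded libraries of polyadenylated RNA. The authors mapped paired reads of 75 bases to Rnor6 in CLC genomics workbench (version 11). CASAVA is a further tool in the submitters' notes on processing. The sources used here do not state whether the counting used strand. The authors deposited a raw count of reads per gene for each library and a TPM, scaled by gene length and to the same total. The RPKM, the scaled CPM and the columns of fold changes and p-values of the authors' own comparisons were not used. Groups and animals came from the labels. Counts (65823027 to 70705938 per library) entered edgeR's quasi-likelihood test (glmQLFTest; edgeR version 4.0.16, R version 4.3.3) after TMM scaling and filterByExpr, with the animal as a block and Benjamini-Hochberg adjustment over the 15367 genes kept. Since each pair came from 1 animal, the animal was the block. Across genes, the deviations of the paired libraries from their group means correlated at 0.389, 0.3 and 0.0688 in animals 1, 2 and 3. DESeq2 (version 1.42.0), limma (version 3.58.1) on log2(TPM + 0.1), other scalings and filters and the omission of each animal were alternatives. Log2 ratios within an animal had a prior count of 2 added, and a ratio between 2 libraries carries no estimate of error. The steps were tested on counts simulated at the common dispersion of 0.109. There edgeR, at an adjusted p under 0.05, recovered 41 of 50 genes changed 4-fold and 50 of 50 changed 8-fold. It recovered only 4 genes changed 2-fold and called 6 unchanged genes. The simulation gave every gene the same dispersion, each lesion the same change and no effect of the animal. Its recovery rates therefore do not apply to genes whose change differed between animals. All members may be named, and values per library are given for those with an unadjusted p under 0.05, those over 1.5-fold the same way in each animal and the 3 most abundant of each group. Of other lists, at most 4 genes with an unadjusted p under 0.05 and the largest mean log2 ratio were named. Mki67, Ccnb1, Rrm2, Mcm3, Mcm5 and Ccne1 as well as Incenp, Mdm2, Mrc1, Pdgfra and S100a9 were added after their values were seen. The members and lists were chosen with earlier results of these data known. Chek1, Cdkn2d, Pecam1 and Col1a2 of the other lists were not analysed here.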

Additional observations from a re-analysis of the deposited data

How the results depend on the processing

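Under other processing, the medians of the S phase genes (0.48) and of the G2/M genes (1.49) and their difference kept their sign and stayed within 1 SD over animals, and over the 3 omissions of an animal the difference ran between 0.74 and 1.47, the S phase median between 0.30 and 0.76 and the G2/M median between 1.13 and 2.23. The tool decided the calls at an adjusted p under 0.05. DESeq2 called 826 genes higher and 979 lower, with 18 members higher and 1 lower, where edgeR called 0. Without the replicate block, edgeR called 1 gene lower, no member, and at an unadjusted p below 0.05 it had 27 members higher and 1 lower, against 18 and 1 with the animal as a block. At an unadjusted p, DESeq2 had 33 members and 1810 of all 15367 genes higher, and limma on log2 TPM had 11 members and 1161 genes. Over the omissions of an animal, members higher ran between 1 and 35 and members lower between 1 and 3, and all genes higher between 445 and 1948 and lower between 964 and 1808. With 4 libraries left, 1 residual degree of freedom remains. At a 2-fold threshold, 0 members were higher and 0 lower in each of 3 animals. Without animal 1, 32 members were over 1.5-fold higher in both remaining animals, and without animal 2 or 3 it was 2 each. Members with small fold changes turned their sign. Ccnd1, at -0.03 on the log2 scale, was at 0.0016 with DESeq2 and at 0.0016 with its size factors in edgeR, at 0.0063 without a filter, at 0.017 without the replicate block and between -0.30 and 0.28 over the omissions of an animal. Over these omissions Mcm7 ran between -0.081 and 0.027, Pcna between -0.066 and 0.0302, Tyms between -0.22 and 0.53, Mcm2 between -0.046 and 0.44 and Rrm1 between -0.0072 and 0.22. The cause was not tested.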

Other observations

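Targets of p53, the factor that halts the cycle after DNA damage, were measured beside the cell cycle genes. Of 10 genes, 5 (Mdm2, Ccng1, Gadd45a, Bax and Plk2) were higher in the lesions at an unadjusted p under 0.05 from edgeR, beside 8.63% of all genes, and none was lower. The differences were small, with list medians of 0.21, 0.53 and 0.42 on the log2 scale in animals 1, 2 and 3. Ccng1, cyclin G1, had ratios of 1.16, 1.82 and 1.59, and Plk2, a kinase of the polo family, had ratios of 1.15, 1.39 and 2.12. Gadd45a, a stress protein, had ratios of 1.15, 1.62 and 1.73, and Bax, which promotes apoptosis, had ratios of 1.17, 1.49 and 1.64. Mdm2, the ligase that limits p53, had 24, 32.7 and 30.5 TPM in the lesions, against 20.7, 20.7 and 22.2 TPM in the circle of Willis, so that every lesion lay above every circle of Willis. Its ratios were 1.26, 1.51 and 1.38. By Benjamini-Hochberg adjustment over all genes, neither edgeR (lowest adjusted p = 0.198) nor DESeq2 called any of the 10.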
